A study of Homo sapiens with 8 samples.

Results

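The genes described here make, sense and break down prostaglandin E2 and its relatives. They were chosen by name, as 10 genes of prostaglandin synthesis and receptors, and 8 of the 10 are listed among the 14870 rows of the table that the authors deposited. PTGS2 and PLA2G4A are not listed in it. The adjusted p-values imply 2 more tests that ranked first and are not among these rows, and which genes they were for is not known here, so a gene that is not listed cannot be taken as undetected or as unchanged. The cells were LX-2, an immortalised human hepatic stellate cell line, kept in low-serum medium with recombinant human TGF-β1 for 72 h in both groups, with DMSO as solvent in 4 samples and with ML290 at 5 µM, an agonist of the relaxin receptor RXFP1, in another 4. Every sample therefore carried TGF-β1, no untreated cells were compared, and the line stands for 1 cell type in culture. The samples are described by the submitters as biological replicates.

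Prostaglandin synthesis starts when a phospholipase such as PLA2G4A frees arachidonate from membranes. The cyclooxygenases PTGS1, which most cells keep switched on, and PTGS2, which inflammatory signals induce, turn it into prostaglandin H2, and terminal synthases turn that into the separate prostanoids. Prostaglandin E2 acts through several receptors, among which PTGER2 and PTGER4 raise cyclic AMP, the same second messenger that RXFP1 raises, and in cultured stellate cells it is known as a brake on TGF-β-driven collagen expression.

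With ML290, the cyclooxygenase PTGS1, the receptor PTGER2, the prostaglandin reductase PTGR1 and the synthase PTGES3 were lower, and the receptor PTGER4 and the synthase PTGES2 were higher. In the authors' deposited table all 6 had an adjusted p under 0.05, 2 of them higher and 4 lower, while PTGES and PTGFR did not pass. That is 75% of the 8 listed genes, against 35.1% of all 14870 rows past the same threshold (19.5% higher and 15.6% lower). Among rows within 2-fold of each gene's level, that share ran from 9.78% for PTGES to 51.8% for PTGES3. The changes were small: ratios of the group means, ML290 over DMSO, ran from 0.607 to 1.46 in the authors' deposited table. PTGER2 alone passed the threshold with a fold of at least 1.5, as 10.8% of all rows did. The median log2 ratio of the 8 genes was -0.23, against 0.02 over all rows. In bulk RNA, less of a transcript per cell and fewer cells making it cannot be told apart. No test of the set was made, because the genes were named with earlier results of these data known.

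The values are least-squares means of normalised read counts, 1 per gene and group as the authors computed them, so no SD stands beside a value and no sample's own value is shown. The error is that in the authors' adjusted p, from a test whose kind is not given. The low values of different genes share a common step of about 1 read, which puts depth near 19100000 reads per ML290 library and 21000000 per DMSO library if values are scaled to 1000000 reads. Of 10 stellate cell markers 8 were listed, and 5 of them were lower, 1 was higher and LHX2 and HAND2 did not pass in the authors' deposited table. COL1A1 was lower at 1809.6 against 4231.5 and VIM higher at 2685.4 against 2284.5, ML290 first, in the authors' deposited table (adjusted p = 1.45e-06 and 0.0101). The stellate markers DES and LRAT were not listed. Of 6 macrophage and leukocyte markers 3 were listed, with PTPRC, CD163 and ADGRE1 absent from the list, and their summed level was 75.6 with ML290 and 40.8 with DMSO. Nearly all of that sum was CD68, a lysosomal protein, which was higher at 71.7 against 35.1 in the authors' deposited table (adjusted p = 1.48e-05). CD14 was lower, by the authors' deposited table, at 3.59 against 5.38 (adjusted p = 0.0169), and LYZ had 0.284 and 0.286 (adjusted p = 0.707). The part of these markers in the changes below was not tested. Of 5 hepatocyte markers SERPINA1 alone was listed, at 1.39 against 1.63 in the authors' deposited table. Of 5 endothelial markers 3 were listed (summed level 1.25 against 1.96), and of 4 bile duct markers 2 were (43.9 against 38.6). These 2 bile duct markers moved in opposite directions, and most of their sum was SOX9. By the authors' deposited table SOX9 was higher (ratio 1.19, adjusted p = 0.0421) and KRT7 was lower (ratio 0.556, adjusted p = 0.000707).

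**Figure D1:**
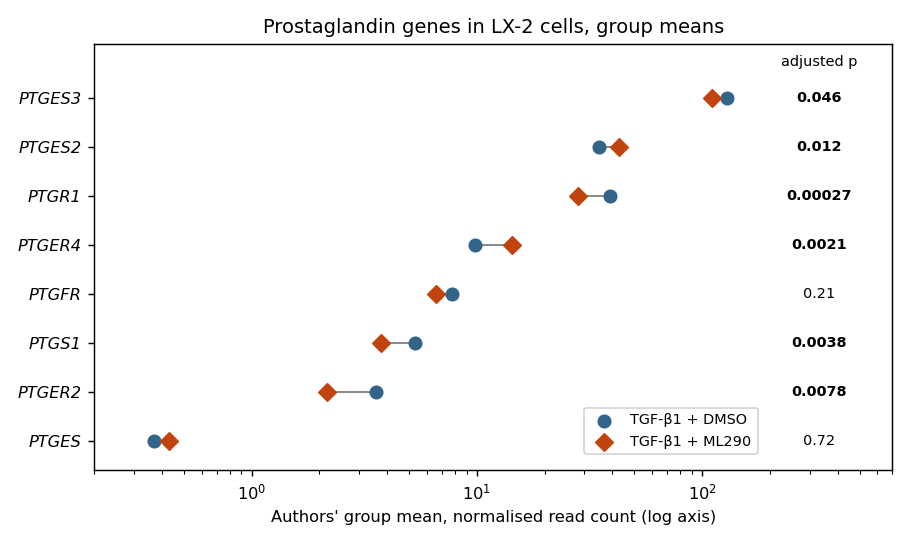
Group mean of each listed gene on a log axis of normalised read counts, with DMSO as blue circles, ML290 as orange diamonds and the authors' adjusted p at the right (bold where under 0.05). The pairs lie close together at every level, and the widest gap is that of PTGER2, at 2.16 with ML290 and 3.56 with DMSO.

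The sequences upstream of the receptor PTGER2 and of the cyclooxygenase PTGS1 are shown because these are the receptor and the sole listed cyclooxygenase that fell, and a short stretch of PTGER4 because this receptor moved the other way. They are from RefSeq on GRCh38.p14, 5′ to 3′ on the gene's strand, and the PTGS1 and PTGER2 stretches end at the base before the RefSeq transcript start. PTGS1 has a pair of start sites, with windows at chr9:122370283-122370532 and chr9:122375052-122375301, plus strand. The PTGER2 window is chr14:52314062-52314311 and the PTGER4 stretch is chr5:40679665-40679694, both on the plus strand. Capitals mark matches to the motifs searched.
PTGS1 upstream start: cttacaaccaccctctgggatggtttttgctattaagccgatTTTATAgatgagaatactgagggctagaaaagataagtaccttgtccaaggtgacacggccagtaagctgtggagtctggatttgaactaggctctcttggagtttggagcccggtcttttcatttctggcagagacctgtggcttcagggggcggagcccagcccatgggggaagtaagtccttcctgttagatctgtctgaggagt
PTGS1 downstream start: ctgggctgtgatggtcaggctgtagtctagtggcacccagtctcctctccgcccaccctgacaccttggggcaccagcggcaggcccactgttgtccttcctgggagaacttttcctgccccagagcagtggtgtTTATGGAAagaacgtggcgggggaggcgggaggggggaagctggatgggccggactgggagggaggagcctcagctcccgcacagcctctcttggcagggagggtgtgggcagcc
PTGER2: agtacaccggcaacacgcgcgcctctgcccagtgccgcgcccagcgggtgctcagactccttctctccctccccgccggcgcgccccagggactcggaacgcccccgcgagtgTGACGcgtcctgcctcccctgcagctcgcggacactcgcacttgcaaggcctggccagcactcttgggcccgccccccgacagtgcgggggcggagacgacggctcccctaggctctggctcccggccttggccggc
PTGER4: agcaccGGGGCTTCCCagggtcccctccga

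Motifs were searched on both strands in the 250 bases before each start. They were the TATA box TATAAA, the cyclic AMP response element TGACGTCA and its core TGACG, which the full element contains, the AP-1 site TGANTCA, the E-box CACGTG, the C/EBP site TTNNGNAA and the NF-κB consensus. The first PTGS1 window held the TATA box letters on the opposite strand, from base -208 to -203, as 10.7% of all 35116 windows held somewhere. The second held C/EBP letters from -115 to -108, found in 33.2% of all windows. PTGER2 held the cyclic AMP core from -137 to -133, found in 21.2% of all windows. The same core was in the windows of PTGES3, from -21 to -17, and PTGS2, from -58 to -54. PTGS2 also held TATA box and C/EBP letters, and a PTGES2 window held E-box and C/EBP letters. PTGER4 held the NF-κB consensus from -244 to -235, found in 5.21% of all windows. PTGR1 held none of these letters, and neither did PTGES, PTGFR or PLA2G4A. In GENCODE 29 the PTGER4 window lies wholly within exon sequence, counted over all genes without recording which gene's exon it was. The PTGER4 gene itself starts before the window there, at 40679498, so that stretch is upstream of the RefSeq start only. A match describes letters and is not a bound site.

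PTGS1 was the only cyclooxygenase listed. The authors' deposited table gives it a group mean of 3.75 with ML290 and 5.31 with DMSO, 1.42-fold lower (log2 ratio -0.50, adjusted p = 0.00381). These means rest on about 287 reads summed over the 4 ML290 libraries and 446 over the 4 DMSO libraries. Counting error alone gives exact 95% Poisson intervals of 3.33 to 4.21 and 4.83 to 5.82 for the means, with no spread between samples in them. By size of change PTGS1 ranked 1337th from the lowest ratio, and 19.6% of all rows had a larger change either way. PTGS1 lies on chromosome 9 from 122370530 to 122395703 on the plus strand of GRCh38 in GENCODE 29, a protein-coding gene like all 10, with 1 value for the whole gene. For PTGS2, the inducible partner on chromosome 1 from 186671791 to 186680427, and for PLA2G4A, the main calcium-dependent phospholipase that supplies both, no value can be given.

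The PGE synthases that passed moved both ways. In the authors' deposited table PTGES2, a membrane-associated PGE synthase, rose from 34.8 with DMSO to 42.6 with ML290, 1.22-fold (log2 ratio 0.29, adjusted p = 0.0121). PTGES3, the cytosolic PGE synthase also known as p23, a co-chaperone of HSP90, fell, by the authors' deposited table, from 128.6 to 110.8, 1.16-fold (log2 ratio -0.21, adjusted p = 0.0459). A change larger than that of PTGES3 was seen in 51.2% of all rows, and of 2367 rows within 2-fold of its level 51.8% passed. GENCODE 29 holds 5 processed pseudogenes of PTGES3, none of them listed, and how reads shared with them were counted is not given. Under the stricter Benjamini-Yekutieli adjustment neither synthase passed, with an adjusted p of 0.123 for PTGES2 and 0.467 for PTGES3.

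PTGES, the inducible microsomal synthase that usually works with PTGS2, was near the lower end of the table. Its mean was 0.432 with ML290 and 0.370 with DMSO in the authors' deposited table (ratio 1.17, adjusted p = 0.717). That is about 33 reads over the 4 ML290 libraries (exact 95% Poisson interval 22.7 to 46.3) and 31 over the 4 DMSO libraries (21.1 to 44.0). These intervals overlap and cover counting error only. Whether a difference of this size could be detected at this depth was not tested. Of 1513 rows within 2-fold of its level, 9.78% passed. PTGES2 and PTGES lie on chromosome 9, from 128120693 to 128128462 and from 129738331 to 129753047, and PTGES3 on chromosome 12 from 56663341 to 56688408, all on the minus strand.

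The pair of prostaglandin E2 receptors that signal through cyclic AMP moved in opposite directions. PTGER4, the EP4 receptor, rose, by the authors' deposited table, from 9.82 with DMSO to 14.3 with ML290, 1.46-fold (log2 ratio 0.55, adjusted p = 0.00212). PTGER2, the EP2 receptor, fell, by the authors' deposited table, from 3.56 to 2.16, 1.65-fold (log2 ratio -0.72, adjusted p = 0.00776). The PTGER2 means rest on about 299 reads with DMSO and 165 with ML290, summed over the 4 libraries of each group. Exact 95% Poisson intervals for counting error alone were 3.17 to 3.98 and 1.84 to 2.51. They hold no spread between samples. Divided by exon length, the level of PTGER4 was 1.78 times that of PTGER2 with DMSO and 4.27 times with ML290. The change in this quotient was not tested by itself. Under Benjamini-Yekutieli adjustment the fall of PTGER2 missed the threshold, with an adjusted p of 0.0791, and the rise of PTGER4 passed, with an adjusted p of 0.0216. PTGFR, the receptor of prostaglandin F2α, which signals through calcium, had 6.57 with ML290 and 7.78 with DMSO in the authors' deposited table (ratio 0.844, adjusted p = 0.209).

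Among all rows, 10.4% changed by more than PTGER2 and 17.1% by more than PTGER4. PTGER4 lies on chromosome 5 from 40679498 to 40693735, PTGER2 on chromosome 14 from 52314305 to 52328606 and PTGFR on chromosome 1 from 78303884 to 78539749, all on the plus strand. TTC33 overlaps PTGER4 on the opposite strand with 0 exon bases shared, and stood at 26.3 against 24.3, ML290 first, in the authors' deposited table (adjusted p = 0.425). GENCODE 29 also holds 2 pseudogenes of PTGER4, neither of them listed.

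PTGR1, which reduces the keto forms of prostaglandins and also inactivates leukotriene B4, had the smallest adjusted p of the 8 genes. By the authors' deposited table it fell from 39.0 with DMSO to 28.1 with ML290, 1.39-fold (log2 ratio -0.47, adjusted p = 0.000265). A larger change was seen in 21.4% of all rows. It lies on chromosome 9 from 111549722 to 111599893 on the minus strand. ZNF483 overlaps it on the opposite strand with 0 exon bases shared, and had 0.940 with ML290 and 1.26 with DMSO in the authors' deposited table (adjusted p = 0.242).

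**Figure D2:**
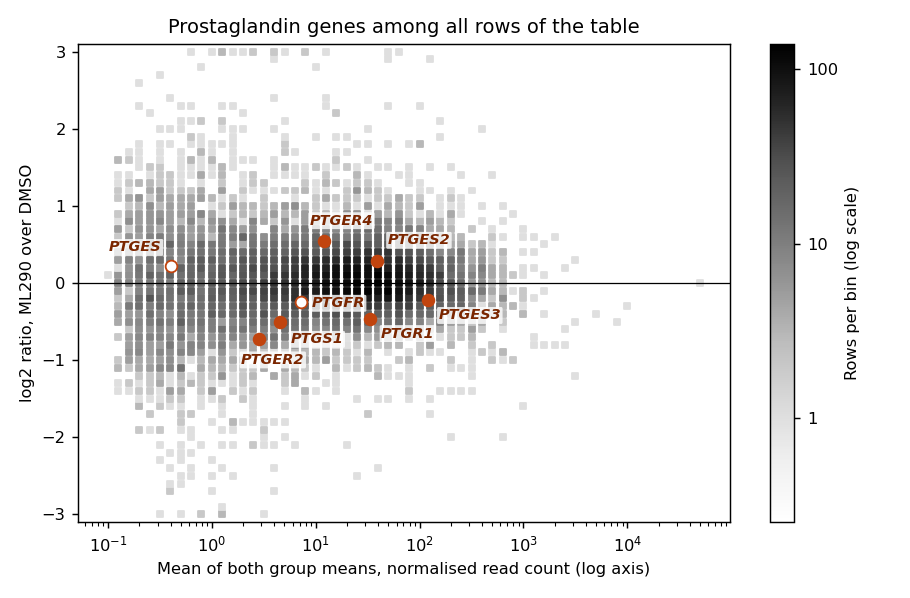
Log2 ratio (ML290 over DMSO, bins beyond 3 either way drawn at 3) against the mean of both group means on a log axis, with all 14870 rows as grey squares shaded by rows per bin and the 8 listed genes as circles, filled where the adjusted p is under 0.05. The 8 genes lie inside the cloud of all rows, between -0.72 for PTGER2 and 0.55 for PTGER4.

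Levels were compared between genes only after division by exon length here, because the shared read step of low genes shows no division by length in the deposited values. With DMSO the order per kilobase of exon was PTGES3 at 61.9, PTGR1 at 25.1, PTGES2 at 14.4, PTGER4 at 2.55, PTGFR at 1.70, PTGER2 at 1.44, PTGS1 at 0.934 and PTGES at 0.208. The order with ML290 was the same. There the level per kilobase was 53.3 for PTGES3, 18.1 for PTGR1, 17.6 for PTGES2, 3.73 for PTGER4, 1.44 for PTGFR, 0.873 for PTGER2, 0.660 for PTGS1 and 0.243 for PTGES. PTGR1 and PTGES2 were thus close to each other with ML290. Without values per sample, which neighbours in this order differ beyond their spread was not tested.

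Of 39 other genes of the prostanoid pathway and its leukotriene branch, 21 were listed. Of these 21, the authors' deposited table has 7 past the threshold (33.3%, near the 35.1% of all rows), 3 higher and 4 lower, with a median log2 ratio of -0.10. The largest change was at the first step. PLA2G4C, a calcium-independent cytosolic phospholipase of the same family as PLA2G4A, rose, by the authors' deposited table, from 1.38 with DMSO to 7.10 with ML290, 5.14-fold (log2 ratio 2.36, adjusted p = 8.09e-08). Its ratio was the 27th highest of all rows. PLA2G4C lies on chromosome 19 from 48047843 to 48110817 and shares 326 exon bases with the antisense gene PLA2G4C-AS1, which is not listed. Whether counting used strand is not given, so reads of the pair cannot be told apart.

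Among the other genes that free arachidonate, the authors' deposited table has MGLL, the lipase that splits monoacylglycerols, 1.26-fold higher at 140.5 (adjusted p = 0.000848) and the lysosomal phospholipase PLA2G15 1.29-fold lower at 23.9 (adjusted p = 0.00949). PLA2G4B had 3.46 with ML290 and 1.68 with DMSO in the authors' deposited table (adjusted p = 0.182), and has a readthrough gene over it, JMJD7-PLA2G4B, at 5.45 and 6.57. PLA2G6, PLA2G12A and PLAA did not pass, and 6 of the 13 genes of this step were not listed.

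Terminal synthases outside the PGE branch held 4 of the 7 calls. The aldose reductase AKR1B1, which can make prostaglandin F2α, rose, by the authors' deposited table, from 90.5 with DMSO to 160.6 with ML290, 1.77-fold (adjusted p = 2.13e-07). The same source, the authors' deposited table, has AKR1C3, another reductase with prostaglandin F synthase activity, 2.05-fold lower, from 4.29 to 2.10 (adjusted p = 0.00235). FAM213B, a prostamide and prostaglandin F synthase, fell, by the authors' deposited table, from 67.4 to 47.6, 1.42-fold (adjusted p = 4.46e-05). The genes with prostaglandin F synthase activity thus moved both ways. PTGIS, the prostacyclin synthase, fell, by the authors' deposited table, from 0.885 to 0.195, 4.54-fold (adjusted p = 0.0114). That is about 74 reads over the 4 DMSO libraries (exact 95% Poisson interval 58.1 to 92.9) and 15 over the 4 ML290 libraries (8.40 to 24.7). CBR1, the other listed gene of this step, had 87.0 with ML290 and 96.0 with DMSO in the authors' deposited table (adjusted p = 0.0675). PTGDS, HPGDS and TBXAS1, the prostaglandin D and thromboxane synthases, were not listed.

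None of the 5 other listed genes grouped with the receptors passed in the authors' deposited table, and 1 of them had an unadjusted p under 0.05. That was PTGIR, the prostacyclin receptor, which also raises cyclic AMP. Its means were 9.90 with ML290 and 8.24 with DMSO in the authors' deposited table (adjusted p = 0.0675). The thromboxane receptor TBXA2R had 5.62 and 6.55 (adjusted p = 0.128), and the EP1 receptor PTGER1 had 1.20 and 1.26 (adjusted p = 0.861), again with ML290 first in the authors' deposited table. At low level, the authors' deposited table gives PTGFRN 0.249 and 0.464 (ratio 0.537, adjusted p = 0.140). PTGDR2 had 0.311 and 0.344 in the authors' deposited table (adjusted p = 0.989). PTGER3 and PTGDR were not listed. Of the genes that break down or export prostaglandins, PTGR2, ZADH2 and ABCC4 did not pass, with ratios from 0.909 to 0.995 in the authors' deposited table, and HPGD and SLCO2A1 were not listed. PTGR1 thus fell while the related reductases PTGR2 and ZADH2 had ratios of 0.977 and 0.995, a difference that was not tested.

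**Figure D3:**
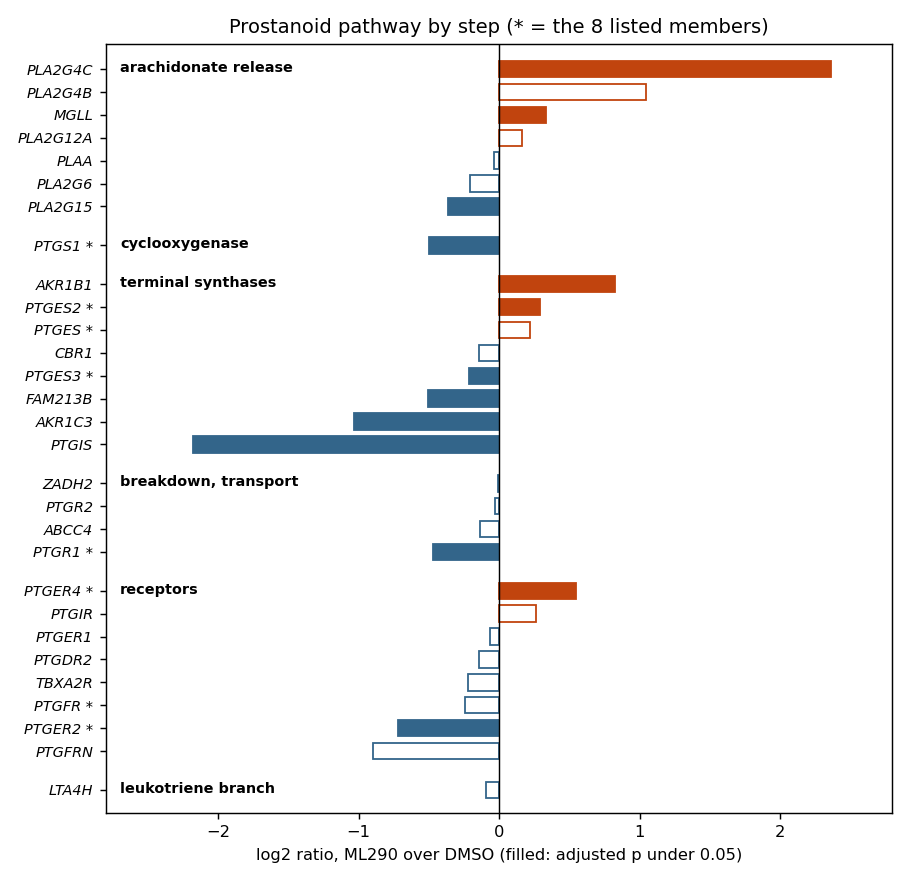
Log2 ratio (ML290 over DMSO) of the 29 listed pathway genes by step, with stars on the 8 genes chosen by name, orange for above 0, blue for below 0, and filled bars for an adjusted p under 0.05. Each of the steps with 2 or more filled bars holds both directions, and the longest bars are PLA2G4C at 2.36 and PTGIS at -2.18.

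Regulators known to act on PTGS2 were all listed although PTGS2 was not. With the authors' deposited table as the test, 9 of 14 transcription factors passed, 7 of them higher and 2 lower, and of 8 proteins that bind its messenger RNA 3 passed, 2 higher and 1 lower. Together 12 of 22 passed (54.5%, against 35.1% of all rows). Levels of the 22 ran from 2.12 to 364, and the share passing was higher among rows of high level. It was 9.78% near the level of PTGES and 51.8% near that of PTGES3. The share among rows at the regulators' own levels was not computed. The authors' deposited table has the NF-κB subunits RELB and NFKB2 3.59-fold (adjusted p = 4.63e-08) and 2.48-fold higher (adjusted p = 6.85e-08) and the factor CEBPB 2.75-fold higher (adjusted p = 9.23e-07). Lower by the authors' deposited table were CEBPD, 2.29-fold (adjusted p = 0.000107), and the immediate-early factor EGR1, 1.85-fold (adjusted p = 0.017). These counts describe transcripts of the regulators and say nothing of PTGS2 itself.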

How the data were processed

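RNA of 8 LX-2 samples was sequenced, 4 per group. The submitters' processing notes name STAR, Partek and the build GRCh38 with no role or version. The annotation, counting, use of strand, filter, normalization and test are not stated in what was used here. The group means and totals that the authors deposited are a signal, least-squares means of normalised read counts per the file headers. The authors also deposited the ratio, the signed fold (a score), the p-value and the step-up adjusted p-value. That adjustment matches Benjamini-Hochberg over 14872 tests. The 2 tests beyond the 14870 rows ranked first and are not analysed here.

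Log2 ratios, counts past an adjusted p of 0.05, ranks and the read step were computed. The step was fitted to group means under 1: 68.9% of 2139 ML290 values and 83.5% of 2127 DMSO values lay within 0.15 of a whole read, so reads given for single genes are approximate. Intervals cover counting error only. The step fit and the adjustments were tested on simulated data. Exon lengths are unions over protein-coding transcripts of the GENCODE 29 basic set, and promoter windows are from RefSeq, which had all 10 genes. As planned for a table of comparisons, its own adjusted p was the test.

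The genes and lists were chosen with earlier results of these data known. All 10 genes were named, then pathway genes past the threshold and PTGS2 regulators past it with a fold of at least 1.5. Other genes given with values were picked after these were seen. Promoters were to be shown for changes over 2-fold, which none of the 8 listed genes had, and those shown were chosen afterwards. Alternatives were a threshold of 0.01, Benjamini-Yekutieli adjustment, a minimum level of 1, a fold of 1.5, centring and, added later, the unadjusted p. Tools were Python 3.11.15 with scipy 1.17.1, numpy 2.4.6, pandas 2.3.3 and, for plots, matplotlib 3.10.9.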

Additional observations from a re-analysis of the deposited data

How the results depend on the processing

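The alternatives altered the threshold or the adjustment, or shifted all log2 ratios alike, and so do not test directions. The 6 calls among the prostaglandin genes became 4 at an adjusted p of 0.01, where PTGES2 and PTGES3 no longer passed, and 3 under Benjamini-Yekutieli adjustment, which left PTGS1, PTGER4 and PTGR1 (for PTGER2 the adjusted p was 0.0791). PLA2G15, PTGIS and EGR1 also missed the threshold under that adjustment, with an adjusted p of 0.0967, 0.116 and 0.173. With a fold of at least 1.5 asked for, 1 call remained among these genes, 4 of 7 among the other pathway genes, 5 of 12 among the PTGS2 regulators and 1604 of 5226 over all rows. All rows gave 3413 calls at 0.01 and 2834 under Benjamini-Yekutieli adjustment. The unadjusted p under 0.05 passed 6, 9, 13 and 6536 of these. A minimum level of 1 removed PTGES and PTGIS from those considered, and centring on the median of all rows changed no call. The read steps differed by under 0.01 of their size with values under 2. No paired analysis was possible because the table holds group means and no values per sample. For the same reason leaving out a replicate was not run. Among the 20 named genes depth was lowest for PTGES and PTGIS, with at most about 33 and 74 reads in a group, and the receptor PTGDR2 had about 24 and 29.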
